A study of Mus musculus with 6 samples.

Results

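Distal WT-only regions are stretches of open chromatin, away from gene starts, that were called in wild-type (WT) oviductal muscle cells and not in the same cells from Pbrm1 conditional knockout (cKO) mice. They were chosen in 3 steps from the conservative peak list of each genotype, a list of positions that were called reproducibly between libraries. Overlapping entries within a list were merged, which left 56436 WT and 58935 Pbrm1 cKO regions. A WT region was then kept if it shared no base with any Pbrm1 cKO region and lay farther than 1 kb from every annotated transcription start (GENCODE M21, GRCm38/mm10). Of the 56436 WT regions 6836 met the rule (12.1%), which were 19% of the 36057 distal WT regions and covered 2.51 Mb of the 29.5 Mb of WT open chromatin. Another 29221 distal WT regions overlapped a Pbrm1 cKO region and are called shared distal regions here, and 9666 distal regions were called only in Pbrm1 cKO.

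The assay was ATAC-seq, in which the transposase Tn5 inserts sequencing adapters into DNA that is not wrapped in nucleosomes. There were 3 WT and 3 Pbrm1 cKO libraries, each of 50000 primary oviductal muscle cells taken on day 2 of pregnancy from mice aged 8 to 12 weeks, all mated with stud males. Oviducts of both genotypes were dispersed with trypsin, collagenase and dispase, filtered and plated for some hours before use, so each library held the cells that attached to the dish. The labels name the groups WT and Pbrm1 cKO without naming the Cre. The study's methods describe Pbrm1 fl/fl females carrying PR-IRES-cre, a Cre driven by the progesterone receptor gene, and Pbrm1 fl/fl controls, for its uterine model. A supplementary legend of the study also calls the oviductal control cells Pbrm1 fl/fl, so WT here may stand for floxed animals without Cre. The labels do not say whether libraries came from single or pooled animals, so the spread between libraries may be partly technical.

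PBRM1 is a subunit of PBAF, one form of the SWI/SNF complexes that use ATP to slide or evict nucleosomes, and its bromodomains bind acetylated histone tails. Most open chromatin far from gene starts marks enhancers or insulators: enhancers are held open by sets of transcription factors such as AP-1, TEAD and nuclear receptors, insulators by CTCF. The muscle of the oviduct moves the embryo towards the uterus, under the control of ovarian steroids, prostaglandins and calcium entry.

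Sequences of 10 of the 6836 regions are given first, because the values further on return to them. Each is the reference sequence (RefSeq, GRCm38.p6) of the 200 bp centred on the strongest summit, named by the nearest transcription start. The first 4 are regions that were strong in WT and weak or without an entry in Pbrm1 cKO libraries. They are shown as examples that hold the AP-1 motif (TGANTCA, bound by Fos and Jun family dimers), in capitals. Other such regions named below, those of Cacnb1, Mark3, Gm13655, Tuft1, Spef1, Tbcel and Gm26422, hold no match to it.
n-R5s92 region, chr9:115548046-115548245, plus strand: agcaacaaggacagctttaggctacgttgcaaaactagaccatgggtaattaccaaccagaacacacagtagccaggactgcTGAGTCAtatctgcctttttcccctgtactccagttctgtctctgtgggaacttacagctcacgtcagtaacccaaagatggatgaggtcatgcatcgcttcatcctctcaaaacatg
Mir6354 region, chr1:168951012-168951211, plus strand: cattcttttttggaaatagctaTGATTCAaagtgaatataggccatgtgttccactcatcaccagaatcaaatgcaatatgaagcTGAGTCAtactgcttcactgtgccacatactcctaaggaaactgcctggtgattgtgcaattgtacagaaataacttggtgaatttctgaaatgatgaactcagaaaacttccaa
Gm48306 region, chr10:88008879-88009078, plus strand: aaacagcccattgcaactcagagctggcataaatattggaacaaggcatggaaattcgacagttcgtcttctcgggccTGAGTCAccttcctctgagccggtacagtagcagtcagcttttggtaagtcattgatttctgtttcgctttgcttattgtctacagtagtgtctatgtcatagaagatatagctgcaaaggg
Gm37731 region, chr1:159566765-159566964, plus strand: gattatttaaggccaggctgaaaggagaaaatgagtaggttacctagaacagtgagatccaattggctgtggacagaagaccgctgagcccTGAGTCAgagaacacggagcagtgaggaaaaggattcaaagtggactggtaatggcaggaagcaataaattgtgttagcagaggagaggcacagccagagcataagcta
The centre of an AP-1 match lay 15, 12, 19 and 6 bases from the summit in these 4 windows, in each case on the side of lower coordinates. In the windows near Gm7482, Rsph3a and Gm47059, named below, the match lay 78, 65 and 27 bases away on the other side. Among windows with the motif, a match lay within 25 bp of the summit in 38.6% of WT-only and 36.7% of shared distal regions. The next pair holds the palindromic estrogen receptor motif, a pair of inverted receptor sites with 3 bases between them, in capitals. One lies near Greb1, a well-known estrogen-induced gene.
Gm7482 region, chr7:63802655-63802854, plus strand: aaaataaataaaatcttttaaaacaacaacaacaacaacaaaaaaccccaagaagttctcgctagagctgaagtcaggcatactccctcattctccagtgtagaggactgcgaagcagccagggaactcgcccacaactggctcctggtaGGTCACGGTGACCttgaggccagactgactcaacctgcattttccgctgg
Greb1 region, chr12:16760369-16760568, plus strand: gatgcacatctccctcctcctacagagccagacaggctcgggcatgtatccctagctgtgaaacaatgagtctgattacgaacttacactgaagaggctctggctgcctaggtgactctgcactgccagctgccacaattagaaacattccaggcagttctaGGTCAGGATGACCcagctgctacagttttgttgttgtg
The following pair shows the TEAD motif (GGAATG, bound by the TEAD partners of YAP and TAZ) in the region nearest Ccnk, and the NF1 motif (TTGGCA, bound by nuclear factor I proteins) in the region nearest Gm13655.
Ccnk region, chr12:108223482-108223681, plus strand: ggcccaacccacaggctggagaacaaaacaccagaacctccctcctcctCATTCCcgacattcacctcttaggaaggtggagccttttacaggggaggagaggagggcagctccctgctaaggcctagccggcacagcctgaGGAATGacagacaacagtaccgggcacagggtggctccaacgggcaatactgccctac
Gm13655 region, chr2:75642388-75642587, plus strand: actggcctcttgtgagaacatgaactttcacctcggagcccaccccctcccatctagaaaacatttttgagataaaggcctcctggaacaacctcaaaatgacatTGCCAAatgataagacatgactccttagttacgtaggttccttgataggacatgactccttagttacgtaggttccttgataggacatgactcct
The last pair shows the core of the CTCF motif in a region that ranked higher in Pbrm1 cKO libraries although it was called only in WT, and the E-box CATCTG, a form that HAND2 and related factors bind, in an intron of Slc8a1. Matches to the reverse complement are in capitals as well.
Sgf29 region, chr7:126643255-126643454, plus strand: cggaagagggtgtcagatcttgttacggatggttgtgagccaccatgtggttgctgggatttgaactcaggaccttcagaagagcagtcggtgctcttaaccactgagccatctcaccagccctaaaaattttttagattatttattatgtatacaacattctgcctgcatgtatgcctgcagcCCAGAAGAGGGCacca
Slc8a1 region, chr17:81618622-81618821, plus strand: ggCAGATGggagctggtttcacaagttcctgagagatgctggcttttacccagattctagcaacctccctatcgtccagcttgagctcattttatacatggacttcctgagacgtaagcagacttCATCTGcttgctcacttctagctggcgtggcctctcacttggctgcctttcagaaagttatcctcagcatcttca

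The 6 single libraries were deposited as relaxed peak lists, called at a p threshold of 0.01 and limited to 300000 entries, and they held 298563 to 300000. Read totals were not in these lists, but the number of sequenced tags over each summit could be recovered from the listed fold and p. The lowest background found in this way was 1.11 to 1.37 tags in WT and 1.05 to 1.31 in Pbrm1 cKO, with overlap. Over the summits of shared distal regions the median tags were 29, 27 and 16 in WT and 33, 28 and 29 in Pbrm1 cKO. Tags were not scaled between libraries, so the tag comparisons below carry such differences. WT 3 had the lowest median fold over background (3.61), while WT 1 and WT 2 had 4.46 and 4.57 and the Pbrm1 cKO libraries 4.43 to 4.87. Promoters of 18 of 19 smooth muscle contractile genes carried a WT region, with median ranks of 13004 to 16960 in WT and 13310 to 16663 in Pbrm1 cKO, a rank being the place of a region among the 66679 regions of both lists in one library. Among promoters of epithelial markers 6 of 18 had a region, those of Krt19, Foxj1, Cldn3, Elf3, Muc1 and Wfdc2, while Epcam and Cdh1 had none. They ranked 17786 to 22974 in WT and 23659 to 32253 in Pbrm1 cKO. Endothelial marker promoters (8 of 11, with Pecam1 and Cdh5 but without Tie1, Emcn and Sox17) ranked 23234 to 31294 and 32498 to 41351. Those of fibroblasts and pericytes (8 of 14) ranked 25864 to 34142 and 35972 to 38025. For these 3 lists the medians did not overlap between genotypes, with WT ahead. Single genes differed: ranks were apart at Wfdc2, Egfl7 and Thy1, among others, but overlapped at Foxj1, Vwf and Dcn, among others. The part of this in the WT-only regions was not tested. Immune marker promoters (2 of 12, with Cd68 and Csf1r but without Ptprc) ranked 20830 to 30538 and 26792 to 31232. Mesothelial marker promoters (3 of 6, with Lrrn4, Krt19 and Wt1 but without Msln) ranked 14818 to 28648 and 18186 to 34216. The promoter region of Pbrm1 (chr14:31018762-31019679) ranked 19394, 10526 and 19166 in WT and 12415, 12332 and 22222 in Pbrm1 cKO, and since a floxed exon leaves the promoter in place these values do not check the deletion.

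The distal WT-only regions were weak and narrow ones. Their best −log10 p in the pooled WT libraries had a median of 25.7, against 48.8 for shared distal regions. Distal regions called only in Pbrm1 cKO had a median of 32.7 in the pooled libraries of their own genotype. Their median fold over background was 7.58 (10.4 in shared distal regions) and their median width 325 bp (434 bp), with a range of 73 to 1319 bp. Of the 6836 regions 96.9% lay in the weaker 50% of the WT list, compared with 52% of shared distal regions, and 0 lay in its strongest 10%. The best-placed one was at place 10225 of 56436. Read the other way, the share of distal WT regions that were WT-only fell with strength at every step. When the 36057 distal WT regions were ordered by p and divided into 10 equal groups, 59.4% of the weakest group were WT-only, 43.7% of the next, 14.9% of the fifth and 0.0832% (3 of 3606) of the strongest. The median IDR score, a measure of reproducibility that stands at 540 on the authors' threshold of 0.05 and is capped at 1000, was 707 for WT-only and 1000 for shared distal regions. Presence on the WT list and absence from the other chose these regions, so their strength is given as a description.

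**Figure D1:**
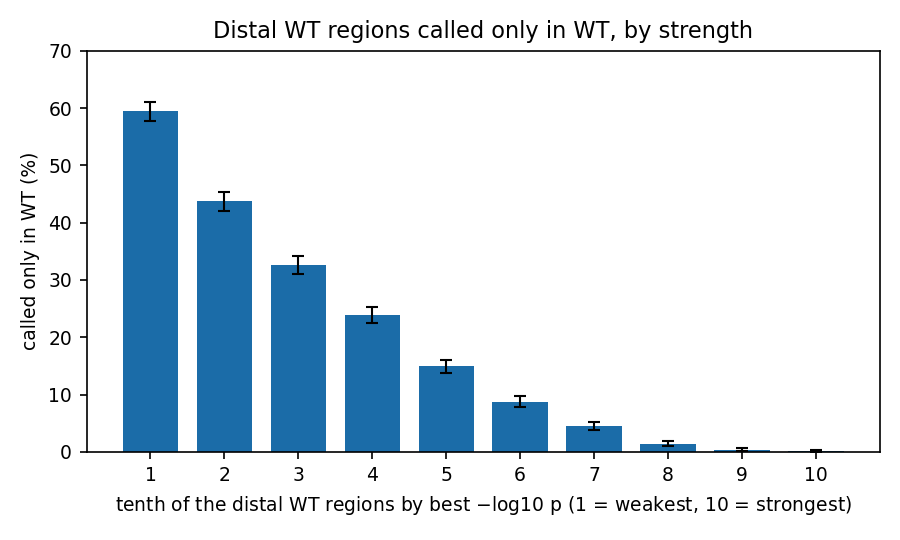
Share of distal WT regions called only in WT (y axis, percent) in 10 groups of equal size ordered by best −log10 p (x axis, 1 is the weakest group). Error bars are 95% Wilson intervals, and the bars fall at every step, from 59.4% in the weakest to 0.0832% in the strongest group.

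The regions nearest to the limits of the rule are given here, beside those just left out. The members closest to a start lay 1002 bp from Pantr2, 1003 bp from 1700109G14Rik and 1004 bp from Gm20163, and WT-only regions left out lay 997 bp from Lamr1-ps1, 997 bp from Gm28577 and 996 bp from Gm6987. The smallest gap to a Pbrm1 cKO region was 16 bp, near Gm23128, and a region near Tanc1 was left out for an overlap of 8 bp. Of the 6836 regions 642 (9.39%) had a Pbrm1 cKO region within 500 bp. The median gap was 8185 bp. An IDR score of 560 or less, next to the threshold, was held by 488 regions (7.14%), compared with 445 shared distal regions (1.52%).

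Most of the WT-only regions still had an entry in the relaxed lists of the Pbrm1 cKO libraries, whose p threshold is a low bar. An entry was present for 96.2%, 95.1% and 95.1% of them in the 3 Pbrm1 cKO libraries, and for 99.6%, 99.5% and 92.2% in WT 1, WT 2 and WT 3. All 3 Pbrm1 cKO libraries held an entry at 6178 regions (90.4%), 2 held one at 455, 1 at 138 and 0 at 65. At 43 regions (0.629%) every WT library and no Pbrm1 cKO library held one. Of the 530 regions missing from exactly 1 WT library, 499 were missing from WT 3, the library with the lowest median fold. With a limit to the 50000 best intervals of each library the genotypes separated, at 39.4%, 39.6% and 26% of the regions in WT and 14.6%, 10.9% and 19.5% in Pbrm1 cKO. The rule chose the regions on this contrast, so the separation is a description. Shared distal regions had 83.1%, 83.2% and 71.7% in WT and 84%, 82.8% and 81.6% in Pbrm1 cKO. Distal regions called only in Pbrm1 cKO had the reverse order, 12.4%, 12.8% and 14.9% against 37.6%, 37.7% and 31.3%. The lists hold only entries above their cutoff, so a region without an entry is not shown to be closed.

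**Figure D2:**
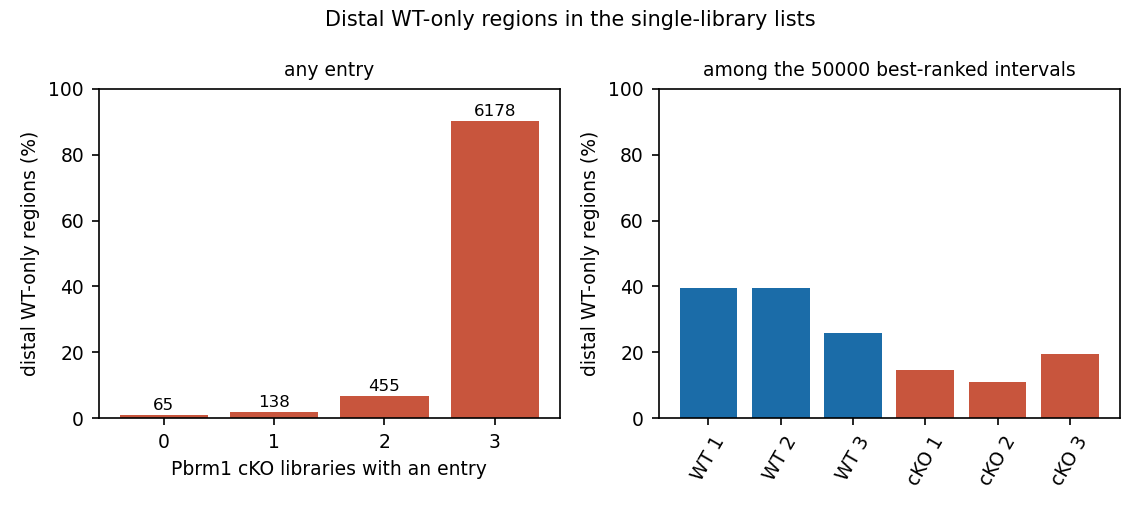
Left, percent of the 6836 distal WT-only regions (y axis) with an entry in 0, 1, 2 or 3 Pbrm1 cKO libraries (x axis), with 90.4% in all 3. Right, percent among the 50000 best-ranked intervals of each library, 26% to 39.6% in WT (blue) and 10.9% to 19.5% in Pbrm1 cKO.

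The size of the difference was a drop from a low place to a lower one. Median ranks of the WT-only regions were 48267, 47962 and 50292 in WT (mean 48840 ± 1266.2, SD, n = 3) and 61893, 62280 and 56802 in Pbrm1 cKO (60325 ± 3057.6, n = 3). The genotypes did not overlap, Pbrm1 cKO 3 lying nearest to WT. Shared distal regions had mean median ranks of 28833 ± 1105 in WT and 28199 ± 293 in Pbrm1 cKO. In tags the WT-only regions had medians of 18, 17 and 10 over their summits in WT and 14, 11 and 14 in Pbrm1 cKO, and here the genotypes overlapped because WT 3 was the lowest of all. The rank score, log2 of the number of regions divided by the rank, differed by a median of −0.256 (cKO minus WT), with 88.1% of the regions lower in Pbrm1 cKO. The median was 0.0123 for shared distal regions and 0.197 for regions called only in Pbrm1 cKO. These are the contrast that chose the regions, so no test is attached to them.

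**Figure D3:**
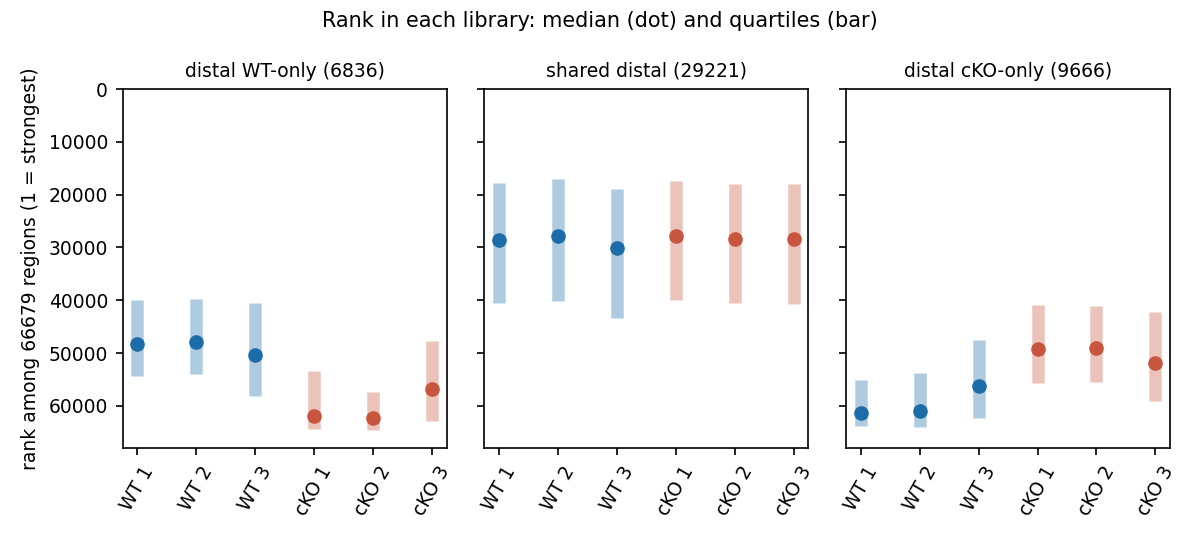
Rank in each of the 6 libraries (y axis, inverted, 1 is the strongest of 66679) for distal WT-only, shared distal and distal Pbrm1 cKO-only regions, dots for medians and bars for quartiles. Distal WT-only regions have medians of 47962 to 50292 in WT and 56802 to 62280 in Pbrm1 cKO, while the medians of shared distal regions lie between 27862 and 30062 in all 6.

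Few of the regions were called one by one on the rank score. In limma, fitted to the rank scores of all 66679 regions with Benjamini-Hochberg adjustment, 0.0285% of regions (19) were called lower in Pbrm1 cKO at an adjusted p under 0.05, and 12 of those were distal WT-only regions (0.176% of them). The count called higher was 0 of 6836, against 0.039% (26) of all regions. At an unadjusted limma p under 0.05, 17 of the 6836 were higher, against 5005 of all 66679 regions. The rank score is compressed at low places: a region going from rank 48840 to the last place would change by only −0.44, so the count of 12 is limited by the scale. It was 1 without WT 1, 1 without WT 2, 10 without WT 3 and 0 without any one of the Pbrm1 cKO libraries. In simulated data limma called 0% of 200 WT-only regions given a 4-fold drop in −log10 p. Each simulated region started from its mean over all 6 libraries, which the lower Pbrm1 cKO values pull below the WT level. That rate therefore does not carry over to the real regions, and whether few calls mean few changes was not tested. Normal scores of the ranks are not compressed in this way but stretch the lowest places, where regions without an entry are tied. On that scale 568 of the regions were called lower (8.31%, against 1.33% of all regions) and 0 higher. Every WT library ranked ahead of every Pbrm1 cKO library at 2557 regions (37.4%), against 10.9% of all regions. The opposite order held at 7 (0.102%), against 10.6%. The calls use the contrast that selected the regions, and the background shares are given for scale only.

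The 6 regions with the best pooled p differed among themselves in how far the genotypes lay apart, and are described here as members selected on that contrast. The strongest of all (−log10 p of 119) was intergenic, chr9:115547649-115548304, 78414 bp from the 5S ribosomal RNA pseudogene n-R5s92 and 237228 bp from Stt3b, the nearest protein-coding start. It ranked 6272.5, 9825 and 19448 in WT and 65835, 65332 and 56802 in Pbrm1 cKO, with 63, 44 and 20 tags against 7, 7 and 12. Every WT library was well above every Pbrm1 cKO library, and the rank score difference was −2.56 ± 0.38 (SE).

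The region nearest Gm7482 (chr7:63802681-63803542), with 47969 bp to Otud7a, a deubiquitinase gene, held 45, 45 and 30 tags in WT and 7, 8 and 8 in Pbrm1 cKO. Its ranks were 15170, 11951 and 10272 against 65835, 64520 and 64250, and its score difference was −2.4 ± 0.31. This was the region with the estrogen receptor motif and an AP-1 motif printed above. Of the 12 called regions it kept its call under the largest number of omissions of 1 library, 3 of 6.

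At the region 67613 bp from Mir6354 (chr1:168950915-168951476) the WT libraries held 39, 44 and 20 tags and the Pbrm1 cKO libraries 20, 11 and 17. Ranks were 15603, 9286 and 17566 against 40898, 60490 and 43908, with no overlap. In an exon of Cacnb1, a beta subunit of voltage-gated calcium channels, tags were 59, 57 and 21 in WT and 49, 19 and 44 in Pbrm1 cKO. There the genotypes overlapped, with a score difference of −0.93 ± 0.43. An intron of Mark3, a microtubule-affinity kinase, had 47, 36 and 15 tags against 11, 17 and 22, which overlapped, while its ranks of 11549, 15792 and 27384 against 63012, 41413 and 32559 did not.

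The region nearest Gm13655 needs care, since all of its 200 bp window was soft-masked repeat and 35 other places of the genome matched it at 90% identity or more. It held 47, 52 and 20 tags in WT, 10 in Pbrm1 cKO 1 and no entry in the other Pbrm1 cKO libraries, and a Pbrm1 cKO region lay 148 bp away. Of the 44 regions named in the text 3 had such near-identical copies, the others being those in Tuft1 and near Rsph3a, with 1 each. Reads from such copies cannot be placed with certainty.

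Of the 43 regions with entries in every WT and no Pbrm1 cKO library, the one with the best mean WT rank lay near Gm48306 (chr10:88008724-88009140, −log10 p of 84). It held 33, 36 and 17 tags in WT and ranked 18082, 12715 and 22052, and its AP-1 match is printed above. Next was an intron of Tuft1, with 49, 49 and 32 tags. An intron of Tnr, the tenascin R gene, nearest Gm37731, held 27, 35 and 17 tags, an exon of Spef1, a gene of ciliary microtubules, 30, 24 and 15, and an intron of Tbcel, a tubulin-binding gene, 25, 19 and 9. Tag numbers in WT 3 were the lowest of the 3 at all of these. Regions near Gm29516 (18, 27 and 13 tags), Rsph3a (18, 18 and 16) and Gm26422 (22, 14 and 9) complete the 8 with the best mean WT rank.

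The other called regions were described by their tags. An intron of Dicer1, which cuts microRNA precursors, held 23, 23 and 17 tags in WT and 7 in a single Pbrm1 cKO library. The Ccdc85c intron nearest Ccnk, a cyclin of transcription elongation, held 47, 39 and 27 tags in WT, no entry in Pbrm1 cKO 1, and 7 and 13 tags in the other cKO libraries. Upstream of Klhl33 the tags were 25, 28 and 18 in WT and 5 in the single Pbrm1 cKO library with an entry. In an exon of Ttc3, a ubiquitin ligase gene, they were 25, 28 and 16 against 7, 9 and 9. The regions nearest Gm47059 (43, 31 and 19 against 8, 12 and 10) and Gm7899 (42, 33 and 15 against 8, 10 and 8) complete the 12. At each of the 12 every WT library held more tags than any Pbrm1 cKO library with an entry; they were selected on this contrast.

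**Figure D4:**
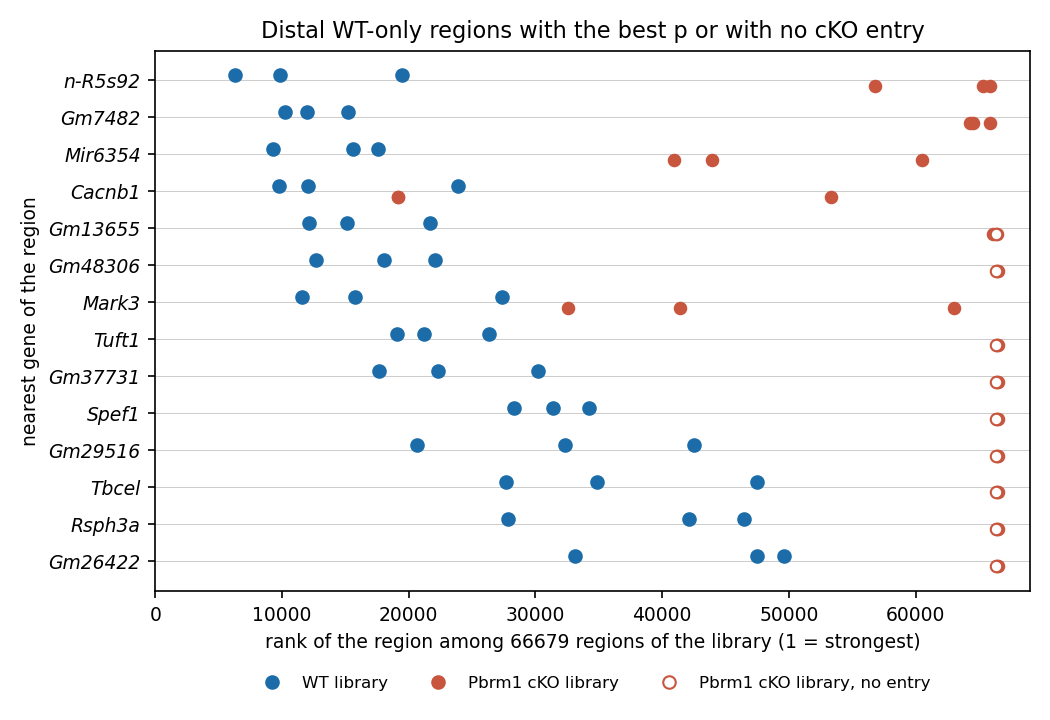
Rank among 66679 regions (x axis, 1 is the strongest) in each WT and Pbrm1 cKO library for the distal WT-only regions with the best pooled p and for those with no Pbrm1 cKO entry, named by their nearest gene. Open symbols at the right edge stand for no entry, and the WT points of the region nearest n-R5s92 lie at 6272.5 to 19448.

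A small number of regions on the WT list ranked higher in Pbrm1 cKO libraries. Every Pbrm1 cKO library was ahead at only 7, and 3 of these are named. An intron of Eif4ebp1, which encodes a repressor of translation initiation, ranked 36472, 41757 and 61475 in WT and 5298.5, 29391 and 36363 in Pbrm1 cKO, with 48, 39 and 15 tags against 132, 57 and 50. A Pbrm1 cKO region lay 59 bp from it. An intron of Uck2, a uridine kinase gene, had 17, 14 and 9 tags against 22, 36 and 21, and one of Exoc2, an exocyst subunit, 19, 14 and 7 against 29, 19 and 20. Regions near Sgf29 (0.62 ± 0.25), Tmem184b (0.76 ± 0.3), Gm5305 (0.63 ± 0.26), Gm22715 (0.53 ± 0.22) and Atl3 (0.52 ± 0.21) were, with Eif4ebp1, those with the smallest p for a higher rank score in Pbrm1 cKO, and 0 of them passed the adjusted threshold. The window near Sgf29 was soft-masked repeat over its whole length.

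The sequence around the summits was not read by the rule, though motif shares can move with strength, and it differed from that of other distal regions at several motifs. Of 24 motifs searched on both strands, 8 had 95% Wilson intervals apart from those of shared distal regions, 5 of them more frequent in WT-only regions. Of these, 6 were apart in the same direction from both shared distal and Pbrm1 cKO-only distal regions, and kept that direction under all 4 alternative windows or subsets. Intervals cover counting error only, and each set of regions comes from 1 list per genotype.

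Less frequent in the WT-only regions were CTCF, AP-1 and RUNX. The CTCF core was present in 444 windows (6.5%, interval 5.93 to 7.1), compared with 10.4% of shared distal and 11% of Pbrm1 cKO-only distal regions. AP-1 was the most frequent of the 24, at 2661 regions (38.9%, 37.8 to 40.1), but shared distal regions carried it at 45.4% and Pbrm1 cKO-only regions at 41.5%. The RUNX motif TGTGGT was present in 16.2% (15.3 to 17.1), compared with 18% and 20.5%. Within the weaker 50% of the WT list the order was the same: CTCF was at 6.55% in WT-only and 11.8% in shared distal regions, and AP-1 at 38.5% and 40.8%.

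More frequent in the WT-only regions were TEAD, NF1 and C/EBP. TEAD was present in 20% of windows (19 to 20.9), against 18.4% of shared distal and 16.4% of Pbrm1 cKO-only regions. NF1 was at 17.5% (16.6 to 18.4), against 15.1% and 13.3%. The C/EBP motif TTGCNNAA, which overlaps the NF1 motif in the Gm13655 window, was at 12.6% (11.9 to 13.4), against 11.4% and 10.5%. The motif AGATAA of GATA factors (10.7%) and the forkhead motif TGTTTAC (3.19%) were above shared distal regions (9.62% and 2.45%) but their intervals overlapped those of Pbrm1 cKO-only regions, and within the weaker 50% of the WT list the interval of AGATAA (10.8%) overlapped that of shared distal regions (10.1%) as well. For each of these motifs most regions of every set lacked it.

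The muscle-related motifs did not set the regions apart. The CArG box, which the smooth muscle regulator SRF binds, was present in 1.35% of WT-only, 1.27% of shared distal and 1.12% of Pbrm1 cKO-only regions. MEF2 motifs were at 3.16%, 3.11% and 3.46%, and the E-box CATCTG at 18.8%, 19.1% and 18.4%. Intervals overlapped for each. The same held against shared distal regions for CRE (TGACGTCA), the E-box CAGCTG, steroid receptor (ACANNNTGT), HOX (CCATAAA), TCF/LEF (ATCAAAG), SP/KLF (GGGCGG), ETS (CCGGAAGT), STAT (TTCNNNGAA), MEIS (TGACAG), SOX (CATTGT), NF-kB and the nuclear receptor motif AGGTCA, whose shares in the WT-only regions ran from 0.439% (ETS) to 15.6% (CAGCTG). Base composition was close, with a median GC of 48% in WT-only, 49% in shared distal and 47.5% in Pbrm1 cKO-only windows and 3.19, 3.44 and 2.7 CpG per window.

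**Figure D5:**
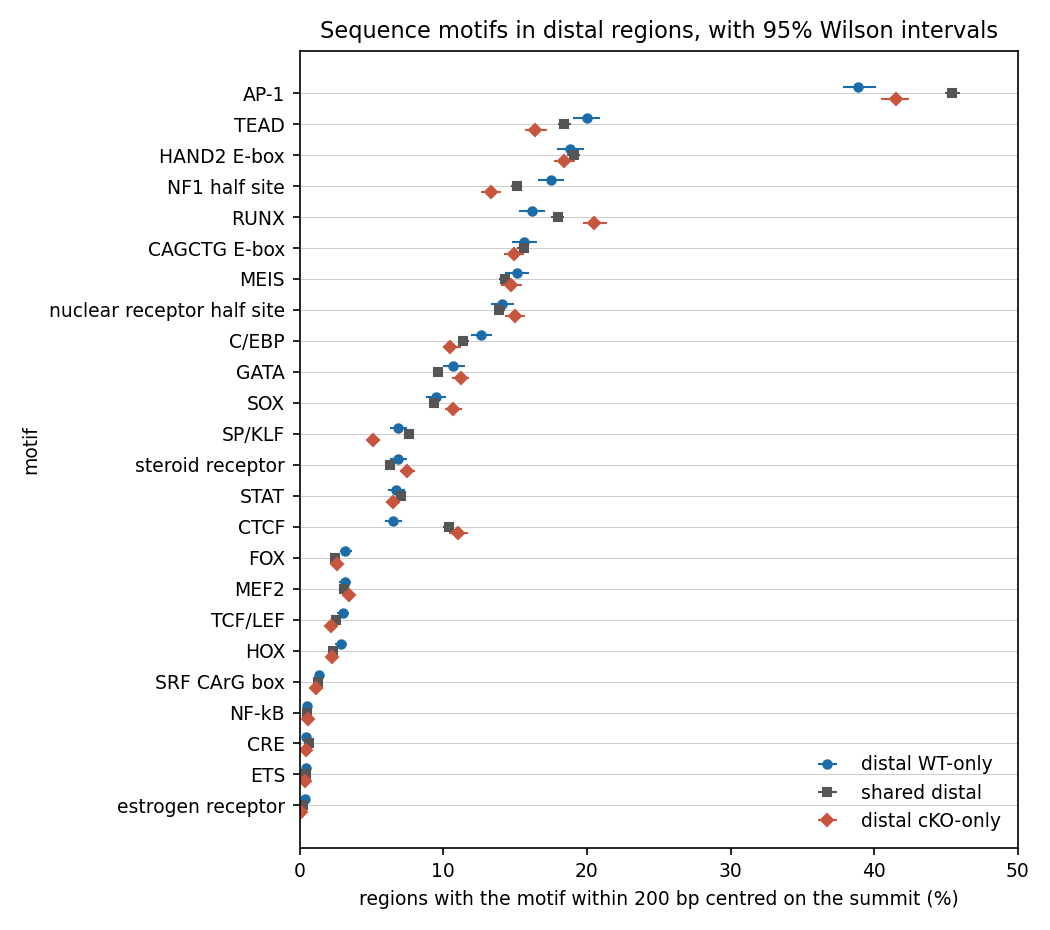
Percent of regions with each motif in the 200 bp around the summit (x axis) for distal WT-only, shared distal and distal Pbrm1 cKO-only regions, with 95% Wilson intervals. WT-only regions lie left of both other sets for AP-1 (38.9%) and CTCF (6.5%) and right of both for TEAD (20%) and NF1 (17.5%).

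Within the WT-only regions the rank change, which selected them, is given by motif as a description. The 444 with a CTCF core had a median score difference of −0.12, against −0.265 in those without one, and every WT library was ahead at 16.4% of them against 38.9%. For AP-1, as for most of the 24 motifs, the medians were close (−0.262 and −0.252). The palindromic estrogen receptor motif was rare, at 24 regions (0.351%, interval 0.236 to 0.522), against 0.233% of shared distal and 0.114% of Pbrm1 cKO-only regions, and only the last interval was apart. Of these 24, 23 were lower in Pbrm1 cKO, against 88.1% of all WT-only regions and 50% of all regions. Every WT library was ahead at 18 (75%), compared with 37.3% of the WT-only regions without the motif and 10.9% of all regions. An entry in all 3 Pbrm1 cKO libraries was nevertheless present at 18. This motif was singled out after its values were seen, and regions are not replicates, so no test is attached.

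The WT-only regions lay slightly farther from genes than shared distal regions. Their median distance to a transcription start was 13467 bp, against 11332 bp, and 3.95% of them lay over 100 kb away compared with 2.71%. By annotation 3347 (49%, interval 47.8 to 50.1) were in introns, 3035 (44.4%, 43.2 to 45.6) intergenic and 454 (6.64%, 6.08 to 7.26) in exons. Shared distal regions had 49.4%, 43% and 7.68%, of which the exonic share was apart. Pbrm1 cKO-only distal regions had fewer intergenic ones (38.8%) and more in introns (52.7%).

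The regions were spread thinly over genes. They had 5417 nearest genes, 4360 of which had exactly 1, and 21 had 5 or more. Frmd4b, a scaffold gene, Kalrn, a guanine nucleotide exchange factor, and Pde4d, a cAMP phosphodiesterase, had 7 each. Every WT library was ahead at 3, 3 and 2 of those. Such counts, here and for the gene lists below, stand beside 37.4% of all WT-only regions and 10.9% of all regions. The noncoding Gm27580 and Zfp469 had 6 each. Igf1r, the receptor of insulin-like growth factor 1, also had 6, with a median score difference of −0.597 and WT ahead at 4. Its value was the most negative among genes with 6 or more. Rarb, a retinoic acid receptor gene noticed after the values were seen, had 5, with a median of −0.684 and WT ahead at 4. The number of regions near a gene also follows its length and the density of open chromatin: Pde4d had 31 shared distal regions as well.

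Genes of prostaglandin synthesis, transport and signalling, the pathway in the title of the series, held WT-only regions at about the rate of shared distal regions. The list of 27 genes had 8 (0.117% of WT-only regions, against 0.116% of shared distal regions), near Hpgd, Pla2g4a, Ptger2, Ptges, Ptgr1, Ptgs1, Ptgs2 and Slco2a1. The one with the best mean WT rank, 41763 bp from the prostaglandin transporter gene Slco2a1, ranked 33382, 30903 and 24116 in WT and 30041, 61359 and 42522 in Pbrm1 cKO. One Pbrm1 cKO library lay within the WT range. Every WT library was ahead at 2 of the 8. The region 8410 bp from Ptgs2, the inducible cyclooxygenase, ranked 58984, 52061 and 61633 against 62596, 64215 and 64940, and that near Hpgd, which inactivates prostaglandins, 45342, 49597 and 47515 against 59843, 65332 and 51795. The intronic region of Ptger2, a prostaglandin E receptor, had a score difference of 0.12 ± 0.17 and that of Pla2g4a, which releases arachidonic acid, 0.18 ± 0.15. The median over the 8 was −0.128, closer to 0 than the −0.256 of all WT-only regions.

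Genes of calcium and potassium handling had a median score difference of −0.297 over their WT-only regions, near the −0.256 of all. In the list of 31 calcium and potassium handling genes 13 had a WT-only region, 21 regions in all (0.307%, against 0.236% of shared distal regions), and every WT library was ahead at 9. The one with the best mean WT rank was in an intron of Slc8a1, the sodium-calcium exchanger, chr17:81618384-81618940, with 46, 30 and 23 tags in WT and 25, 9 and 19 in Pbrm1 cKO. Its ranks of 12823, 21219 and 15355 against 34014, 63928 and 40165 did not overlap, while its tags did, and its score difference was −1.46 ± 0.34. Regions of Cacna1g, a T-type calcium channel (−0.6 ± 0.18), Kcna5, a voltage-gated potassium channel (−0.59 ± 0.17), and Itpr2, an inositol trisphosphate receptor (−0.59 ± 0.19), had WT ahead as well. Both regions nearest Itpr1, the related receptor, had it too, at −0.41 ± 0.15 and −0.25 ± 0.11. Others lay near 0, such as those of Cacna1c, the L-type calcium channel (0.16 ± 0.29), Abcc9 (0.04 ± 0.2 for one, −0.39 ± 0.32 for the other) and Trpc6 (−0.02 ± 0.24).

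Contractile protein genes had 8 regions near 7 of 19 genes (0.117%, against 0.11%). A region 9245 bp from Synpo2, an actin-bundling protein of muscle, ranked 33989, 38457 and 32972 in WT and 51818, 63796 and 49180 in Pbrm1 cKO. At the exon of Acta2, smooth muscle actin, ranks of 33609, 34554 and 44916 overlapped those of 60630, 44674 and 49750. In an intron of Myh11, smooth muscle myosin, the difference was 0.23 ± 0.21. Among 18 smooth muscle regulators 8 had 11 regions (0.161%, against 0.216%), with WT ahead at 4, in or near Klf5, Nfatc1, Tead1 and Wwtr1. The Nfatc1 intron had no entry in any Pbrm1 cKO library. Mef2c, a muscle transcription factor, had an intronic region with 16, 19 and 19 tags against 11, 11 and 18, and an intronic region of Myocd, the coactivator of SRF, had a difference of −0.31 ± 0.22. Receptors of contractile agonists had 8 regions near 5 of 26 genes (0.117%, against 0.0787%), and WT was ahead at 2, those of Adra1a, an alpha-adrenergic receptor, and of Ednrb, an endothelin receptor. The region near Oxtr, the oxytocin receptor, ranked 31376, 42394 and 40160 in WT and 33948, 57391 and 51795 in Pbrm1 cKO, with overlap.

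Transcription factors of the reproductive tract mesenchyme had WT ahead at 7 of 11 regions, against 37.4% of all WT-only regions and 10.9% of all regions. This was the largest share among lists with 10 or more. The contrast chose the regions and the lists are small, so the order of the lists was not tested. The 11 regions lay near 7 of 35 genes (0.161%, against 0.151% of shared distal regions). Among those with WT ahead were regions in or near Emx2, Hoxc9, Meis1 and Msx2. Several of the 7 lay near the same gene, so this share was not spread evenly over the factors. The intron of Emx2, a homeobox gene of the developing urogenital tract, ranked 24046, 49597 and 39244 in WT and 63012, 65332 and 54406 in Pbrm1 cKO (−0.75 ± 0.24). Steroid receptor and cofactor genes had 11 near 7 of 16 genes (0.161%, against 0.205%), with WT ahead at 2, in Greb1 and Nr3c2. The Greb1 intron held 53, 43 and 33 tags in WT and 33, 36 and 40 in Pbrm1 cKO, so the tags overlapped while its ranks of 18486, 23061 and 12967 against 44023, 32664 and 28626 did not. The 3 intronic regions of Esr1, the estrogen receptor gene itself, had differences between −0.17 and 0. SWI/SNF subunit genes other than Pbrm1, which had 0, held 11 near 8 of 28 genes (0.161%, against 0.103%), with WT ahead at 5, in Bcl11b, Bcl7a, Bicra and Smarca2.

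The remaining lists held genes of matrix, signalling and the immediate early response. Extracellular matrix genes had 21 regions near 12 of 36 genes (0.307%, against 0.435%) with WT ahead at 10, and the best-ranked one in WT was near Col6a2, a collagen VI chain (−0.8 ± 0.35). TGF-beta and BMP genes had 22 (0.322%, against 0.315%) with WT ahead at 5, in or near Bmp5, Bmpr1a, Ltbp1 and Smad6. The exonic region of Bmpr1a, a BMP receptor, ranked 20876, 28898 and 27912 in WT and 62784, 61724 and 60240 in Pbrm1 cKO (−1.26 ± 0.25). The best-ranked one in WT, next to Id2, an inhibitor of E-box factors, had ranks that overlapped (−0.53 ± 0.36). Wnt, Hedgehog and FGF genes had 19 (0.278%, against 0.332%) with WT ahead at 11, and the best-ranked one in WT was in an intron of Wnt5b (−0.91 ± 0.31). Immediate early genes had 4 (0.0585%, against 0.089%) with WT ahead at 0. Of the 3 nearest to Fos, the one at 17861 bp ranked 4648.5, 45506 and 55061 in WT and 37864, 1516.5 and 37265 in Pbrm1 cKO, a wide spread within both genotypes, and a Pbrm1 cKO region lay 57 bp away. The other Fos regions, at 12908 and 21911 bp, had differences of −0.31 ± 0.22 and −0.23 ± 0.15.

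Marker genes of other cell types had WT-only regions too. There were 2 near epithelial, 0 near immune, 6 near endothelial, 7 near fibroblast and pericyte and 2 near mesothelial markers, with WT ahead at 1, 0, 2, 0 and 0. As shares these were 0.0293%, 0%, 0.0878%, 0.102% and 0.0293% of WT-only regions, against 0.0479%, 0.024%, 0.0787%, 0.0684% and 0.0445% of shared distal regions. Those with the best mean WT rank were near Cldn3 (−0.51 ± 0.21), Tek (−0.17 ± 0.25), Dpt (−0.2 ± 0.23) and Bnc1 (−0.41 ± 0.25). A bulk library cannot tell fewer cells of a type from less open chromatin per cell.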

How the data were processed

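The authors trimmed reads with cutadapt, aligned them with Bowtie2 to GRCm38.p5 and called peaks with MACS2 in the ENCODE ATAC-seq pipeline (tools and build per the labels' processing notes, versions not given in the sources used here). They deposited a relaxed peak list (p threshold 0.01, at most 300000 entries) for each of 6 libraries and a conservative list of pooled libraries per genotype at an irreproducible discovery rate of 0.05. The deposited columns used were a score (for the conservative lists the IDR score, capped at 1000), the fold over background as a ratio, and −log10 p and −log10 q. Summit offsets were used as deposited. No read counts were in these files, so the authors' count model could not be used. Depth is known only through recovered tags.

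Entries were merged when they shared at least 1 bp. A region of either list (66679) took the best −log10 p among overlapping entries of each library, was ranked within the library, tied at the last place where no entry overlapped, and scored as log2 of the number of regions over the rank. limma 3.58.1 (R 4.3.3) compared 3 Pbrm1 cKO with 3 WT libraries without a block, with trended empirical Bayes and Benjamini-Hochberg adjustment over all regions. Whole tags were solved from fold and p at each summit and matched the listed −log10 p within 0.2% for 100% of the entries with −log10 p under 25. Distances ran from the nearest edge of a region to starts in GENCODE M21. Motifs, GC and soft-masked bases were read from GRCm38.p6 in 200 bp around the strongest summit, and blastn 2.17.0 looked for copies. Steps were tested on simulated data with Python 3.11.15. Whole tags were recovered at 100% of simulated summits. With a 4-fold change in −log10 p at 200 regions, limma called 48.5% of them among the strongest regions and 0% among WT-only regions. Each simulated region started from its mean over all 6 libraries.

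Named regions were, within the WT-only set, the 6 with the best pooled p, the 8 with the best mean WT rank among those with entries in all 3 WT and no Pbrm1 cKO library, the 6 with the smallest limma p in each direction, the 3 with the best mean WT rank among those with every Pbrm1 cKO library ahead, the one with the best mean WT rank in each gene list, the genes with most regions, and all regions called in limma. One region that this rule names is not reported here. Regions named from the lists beyond these were chosen after their values were seen. The members and gene lists were chosen with earlier results of these data known. Replicate numbers did not pair the libraries. Alternatives covered the region rule, overlap, ranking, filters, windows and the omission of each library.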

Additional observations from a re-analysis of the deposited data

How the results depend on the processing

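The number of distal WT-only regions moved most when weak regions were left out: there were 2235 when only the stronger 50% of both lists were compared, while the other definitions gave 5945 to 7206 (6963 with distances from the summit, an alternative chosen after seeing the data). The 90.4% with an entry in all 3 Pbrm1 cKO libraries became 66.4% when an entry had to cover 50% of the region, 46.1% with only the 100000 best entries per library, 88.3% with entries at a q of 0.05 or less and 91.9% to 93% with 1 Pbrm1 cKO library left out. The count of 12 regions called lower in limma was 568 on normal scores, 0 when ranked by fold, 2 among regions with entries in all 6 libraries, and 0 to 10 with 1 library left out: 1 without WT 1, 1 without WT 2, 10 without WT 3 and 0 without any one Pbrm1 cKO library. The count called higher was 0 in limma under each setting. Of these settings only normal scores have a share over all regions beside them (1.33% called lower), so the other counts are descriptions. The median score difference of −0.256 was −0.647 on normal scores and −0.223 to −0.291 otherwise. The 37.4% with every WT library ahead was 34% by fold (10.6% of all regions) and 35.9% among regions with entries in all 6 libraries. It was 41.7% to 51.9% with 1 library left out, where the share over all regions is 15.3% to 17%. Introns held 51.1% by summit. The median GC was 50% and 46.8% in 100 bp and 400 bp windows, and 51% and 47.5% in shared distal regions.

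The replicate numbers did not pair the libraries: deviations of same-numbered libraries from their group means correlated at −0.00289, −0.0549 and 0.00906. With a replicate block limma called 38 of the regions lower and 0 higher, a count given without its share over all regions. The median difference was −0.256, and WT was ahead in all 3 same-numbered pairs at 51.8%, against 18.4% of all regions.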

Other observations

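The share of distal WT regions that were WT-only varied between chromosomes, apart from chromosome Y with 0 of 3, from 17.2% on chromosome 16 to 22.7% on chromosome X (119 of 525, 95% Wilson interval 19.3 to 26.4). Over the 259 bins of 10 Mb with at least 20 distal WT regions the median share was 18.9% and the highest was 50%, on chromosome X from 130 to 140 Mb (10 of 20). In that bin 52.4% of the distal Pbrm1 cKO regions were also called in that genotype only, so both lists differed there. The next bins lay on chromosome 1, at 42.9% (9 of 21) from the start of the chromosome to 10 Mb and 41.5% (22 of 53) from 110 to 120 Mb.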
